A study of Mus musculus with 6 samples.

Results

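The genes described here encode the proteins of the cytoplasmic ribosome of the mouse, and were followed in nephron progenitors with and without the miR-17~92 microRNA cluster. They were chosen by symbol from the deposited expression table: protein-coding genes named Rpl or Rps with a number and at most 1 further letter (a, l or x), together with Rplp0, Rplp1, Rplp2 and Rpsa. Of 27179 entries in the table, 81 met the rule, 50 of the large and 31 of the small ribosomal subunit. Mutant progenitors carried the Six2TGC transgene and floxed miR-17~92 alleles (Six2TGC;miR-17~92fl/fl), and control progenitors carried Six2TGC alone. Both groups came from E16.5 embryonic kidneys, and both therefore expressed the GFP and Cre that Six2TGC places under Six2 control. Progenitors were sorted on GFP, each library pooled the cells of 4 embryos, and there were 3 libraries per genotype. The labels name no floxed alleles in controls and no strain, so effects of the deletion and of genetic background that comes with the floxed alleles cannot be told apart. Replicates are pools, and p-values measure the spread between pools.

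The ribosome is built from a small subunit, which reads the mRNA, and a large subunit, which joins amino acids, each made of ribosomal RNA and a fixed set of proteins present in a defined number of copies. Ribosomal protein genes are transcribed at high level in growing cells, many of their mRNAs begin with a run of pyrimidines through which the TOR kinase controls their translation, and an excess of free ribosomal proteins stabilises p53. The mouse genome holds many processed pseudogenes of this family, which are reverse-transcribed and reinserted copies of its mRNAs, so a sequencing read from a ribosomal protein mRNA may match several places.

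The values were RPKM, reads scaled to gene length in kilobases and to library depth, and the depth recovered from them was 30264067, 27785397 and 27602025 reads in mutant replicates 1, 2 and 3, against 29477464, 36134381 and 28117790 in control replicates 1, 2 and 3. Mir17, the first microRNA of the targeted cluster, had 2, 0 and 0 reads in mutants and 31, 26 and 16 in controls (limma adjusted p 8.54e-05). Summed levels of 10 nephron progenitor markers lay between 601 and 719 RPKM in mutants and between 758 and 827 RPKM in controls. Sums of 10 macrophage and leukocyte markers lay between 13.0 and 15.2 RPKM in mutants and between 5.22 and 8.36 RPKM in controls, and those of 9 interstitium markers between 123 and 201 RPKM in mutants and between 65.8 and 162 RPKM in controls. Renal vesicle markers summed to between 103 and 131 RPKM in mutants and between 95.4 and 114 RPKM in controls. Endothelium, erythroid and ureteric bud markers each summed to 13.3 RPKM or less in every library, and no marker on these lists was listed at 0 throughout. Mitochondrial ribosomal RNA took 32.2%, 38.2% and 32.7% of reads in mutants and 28.8%, 27.0% and 30.4% in controls. The part of these differences in the results below was not tested, and in bulk RNA fewer cells of a type cannot be told apart from less RNA per cell.

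Of the 81 genes, 78 had a mean of at least 0.5 RPKM and were tested among 13463 genes. In mutants Rpl29 rose, Rpl15, Rpl28 and Rps27 fell, and the other 74 did not pass an adjusted p of 0.05 (limma on log2(RPKM + 0.5), Benjamini-Hochberg over all tested genes, two-sided). Over all tested genes, 3.13% passed in either direction, 1.32% higher and 1.81% lower in mutants. The 4 genes that passed are described first. Rpl29 and Rpl15 had been singled out when the gene set was proposed, with results of these data known, so their change is no independent finding.

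Rpl29 (Entrez Gene 19944, chromosome 9, 106428889 to 106431568, mm10) encodes a small basic protein of the large subunit that is also known to bind heparin. It measured 63.7, 61.6 and 71.0 RPKM in mutants, against 1.39, 1.56 and 1.5 RPKM in controls. The lowest mutant library thus stood far above the highest control library, and the values within each genotype were close together. Means were 65.4 ± 4.93 RPKM in mutants and 1.48 ± 0.0885 RPKM in controls (SD, n = 3 each), a log2 fold change of 5.05 (SE 0.13, limma adjusted p 1.14e-09). In reads, the entry held 1368, 1215 and 1391 in mutants and 29, 40 and 30 in controls. Rpl29 also has 49 annotated copies elsewhere in the genome, and 78.7% of the 31-base words of its mRNA occur in at least 1 other gene.

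Among the pseudogenes in the table the one that shares most with Rpl29 is Gm8210, on chromosome 1, and its reads ran the other way. Gm8210 had 26, 32 and 23 reads in mutants and 658, 1114 and 745 in controls, a log2 fold change of -4.40 (SE 0.16, limma adjusted p 3.71e-08). Of the reads counted to either entry, 98.1%, 97.4% and 98.4% were on Rpl29 in mutants and 4.22%, 3.47% and 3.87% in controls. The 480 coding bases of Rpl29 align to Gm8210 without gaps and differ at 3 positions, an identity of 99.4%. Counted from the A of the Rpl29 start codon, the differences are C72A, C300T and T423C, with the base of Rpl29 first. The first 90 coding bases are shown because they carry the nearest of these differences to the start, in capitals; they are spliced in Rpl29, at chr9:106429978-106430360 (plus strand), and continuous in Gm8210, at chr1:43189156-43189245 (plus strand), both in mm10 and read from the annotated transcripts.
Rpl29: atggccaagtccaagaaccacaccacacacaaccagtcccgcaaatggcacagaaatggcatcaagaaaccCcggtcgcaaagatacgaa
Gm8210: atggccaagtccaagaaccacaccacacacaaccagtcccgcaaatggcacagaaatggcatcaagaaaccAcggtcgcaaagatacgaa
Apart from the capital letter the stretches are identical. A read of 100 bases that lies within the coding bases and misses all 3 positions has the same sequence from either gene. Where such a read crosses a splice junction of Rpl29, it matches the genome in parts there and without a break in Gm8210. Over the whole mRNA, Gm8210 shares 51.2% of the words of Rpl29, so reads outside the coding bases need not match both. When reads of Rpl29 and its 6 pseudogenes in the table were added, the sums were 1402, 1257 and 1423 in mutants and 694, 1161 and 781 in controls. The log2 fold change of the sum was 0.78 (SE 0.14, limma adjusted p 0.0115), against 5.05 for Rpl29 alone. Uimc1, another coding gene whose transcripts contain 54.1% of the words of Rpl29, was left out of the sum, and had 861, 722 and 990 reads in mutants and 863, 879 and 808 in controls. Rpl29 stayed past the threshold, and higher in mutants, under all 18 refits with other settings or libraries.

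Rpl15 (Entrez Gene 66480, chromosome 14, 18267823 to 18270986) encodes a large-subunit protein needed for ribosomal RNA processing in human cells, and lies on the chromosome that also carries the targeted cluster. Its level was 50.9, 67.2 and 52.7 RPKM in mutants and 140, 154 and 128 RPKM in controls. The highest mutant value was below the lowest control value by a wide margin. Means were 56.9 ± 8.93 RPKM in mutants and 141 ± 13.3 RPKM in controls (SD, n = 3 each), a log2 fold change of -1.31 (SE 0.14, limma adjusted p 0.000526). The change held in all 18 refits, between -1.49 and -1.10.

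Of 17 annotated copies of Rpl15, 3 had an entry in the table, and these were lower in mutants too. Rpl15-ps6, a pseudogene on chromosome 15, had 279, 1054 and 869 reads in mutants and 2837, 4502 and 3218 in controls, a log2 fold change of -2.30 (SE 0.39, limma adjusted p 0.00766). Gm5292 on chromosome 5 had 3, 41 and 18 reads in mutants and 81, 132 and 83 in controls (log2 fold change -1.97, SE 0.40, limma adjusted p 0.0235). The mutant libraries differed among themselves in both copies, with replicate 1 lowest. Gm10224 on chromosome 6, which shares more sequence with Rpl15 than Gm5292 does, did not pass, at a log2 fold change of -0.63 (SE 0.18, adjusted p 0.0878). Rpl15 and these 3 copies together had 3236, 4693 and 3741 reads in mutants and 10761, 15229 and 10153 in controls, and the sum fell by 1.49 on the log2 scale (SE 0.17, limma adjusted p 0.000587). The direction of Rpl15 was therefore the same with and without these 3 copies, and its other annotated copies could not be added. For comparison, 30.9% of the 31-base words of Rpl15 occur in another gene, against 78.7% for Rpl29. Rpl15-ps6 was taken as a copy by its name and has no count of shared words, so the 30.9% may leave it out.

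The coding bases of Rpl15 and Gm10224 show how close such a copy can be: 612 aligned bases differ at 7 positions, an identity of 98.9%. Coding positions 114 to 203 are shown because 3 of the 7 differences, A156G, G200A and G203A with the base of Rpl15 first, fall there, in capitals. The stretch is spliced in Rpl15, at chr14:18270013-18270337 (minus strand), and continuous in Gm10224, at chr6:122698826-122698915 (minus strand).
Rpl15: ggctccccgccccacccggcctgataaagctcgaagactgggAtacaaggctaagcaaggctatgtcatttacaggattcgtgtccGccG
Gm10224: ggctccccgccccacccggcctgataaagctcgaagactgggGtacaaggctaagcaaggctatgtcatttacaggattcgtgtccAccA
All other letters of the stretch are shared. The rule that the authors' counting used for reads matching several places is not given in the sources used here.

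Rpl28 (Entrez Gene 19943, chromosome 7), a large-subunit protein found in animals but not in baker's yeast, measured 5.26, 5.44 and 9.86 RPKM in mutants and 12.9, 13.7 and 12.4 RPKM in controls. The genotypes did not overlap, but mutant replicate 3 lay nearer to the controls than to the other mutant libraries. Its log2 fold change was -0.93 (SE 0.21, limma adjusted p 0.0339). The call was lost in 8 of 18 refits, among them those without mutant replicate 1 (adjusted p 0.142), mutant replicate 2 (0.204) or control replicate 1 (0.0811). Its copy Gm10051 had 335, 344 and 416 reads in mutants and 441, 787 and 375 in controls, so the genotypes overlapped in the copy. Summed with it, Rpl28 had a log2 fold change of -0.50 (SE 0.18) and did not pass (limma adjusted p 0.158).

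Rps27 (Entrez Gene 57294, chromosome 3), a zinc-binding protein of the small subunit, measured 5.29, 6.51 and 6.36 RPKM in mutants and 8.97, 10 and 8.97 RPKM in controls. Here too the groups did not overlap, and the log2 fold change was -0.59 (SE 0.14). Its limma adjusted p of 0.0491 lies just inside the threshold, and 14 of 18 refits lost the call, among them each refit without 1 library except that without control replicate 3. Its entry holds few of the reads that its sequence could receive. The intronless, protein-coding copy Rps27rt on chromosome 9 carries 98.7% of the 31-base words of Rps27, and the 252 coding bases align without a difference. The first 90 of them are shown as the extreme case in the family, with no capitals because no base differs; they are spliced in Rps27, at chr3:90213218-90213615 (minus strand), and continuous in Rps27rt, at chr9:114982618-114982707 (minus strand).
Rps27: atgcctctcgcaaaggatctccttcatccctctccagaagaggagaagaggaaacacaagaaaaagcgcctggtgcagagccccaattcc
Rps27rt: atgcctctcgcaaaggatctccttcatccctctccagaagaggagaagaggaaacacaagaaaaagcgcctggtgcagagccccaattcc
Rps27rt had 3824, 3688 and 3771 reads in mutants and 4629, 7302 and 3181 in controls, and Rps27 had 92, 104 and 101 in mutants and 152, 208 and 145 in controls. Rps27 thus held 2.35%, 2.74% and 2.61% of the reads of the pair in mutants and 3.18%, 2.77% and 4.36% in controls. The sum of the pair had a log2 fold change of -0.23 (SE 0.19, limma adjusted p 0.497).

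**Figure D1:**
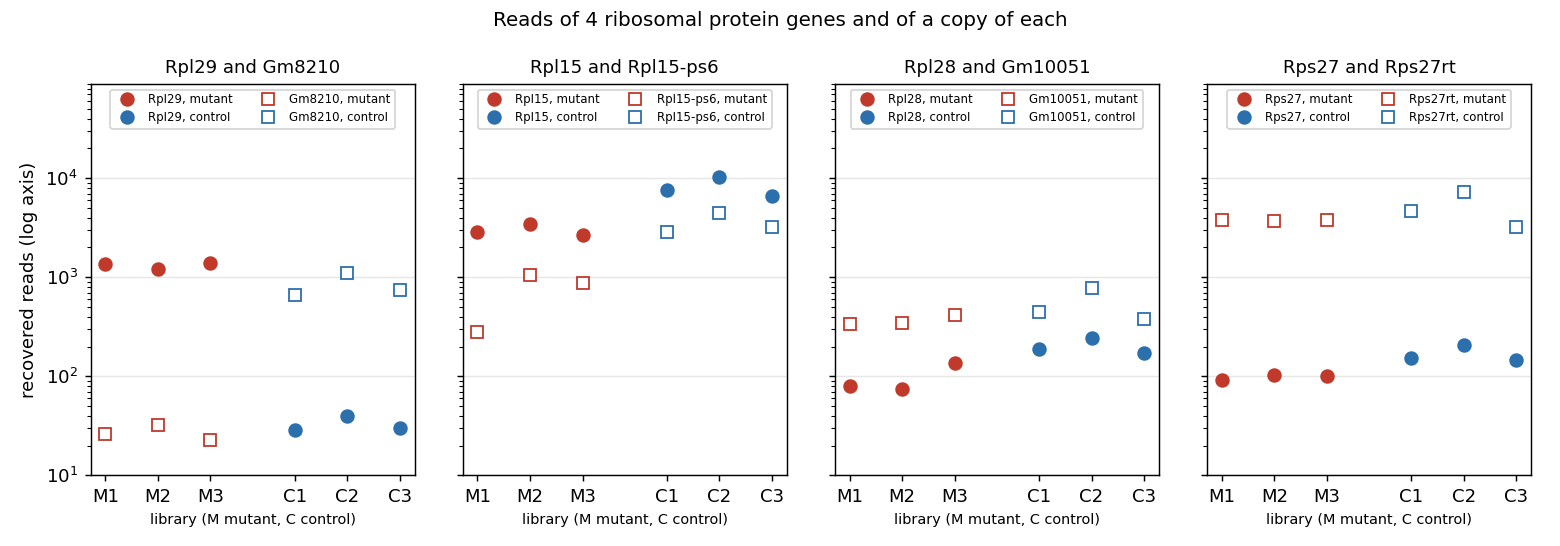
Recovered reads (log axis) of Rpl29, Rpl15, Rpl28 and Rps27 (filled circles) and of a copy of each (open squares) in every library, mutants in red and controls in blue. Rpl29 and Gm8210 exchange places between the genotypes, Rpl15 and Rpl15-ps6 are both lower in mutants, and Rps27rt holds far more reads than Rps27 in every library.

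Just outside the threshold stood Rplp0, Rps13 and Rpl35a. Rplp0, which forms the base of the large-subunit stalk that recruits translation factors, measured 71.0, 72.1 and 66.4 RPKM in mutants and 47.9, 50.4 and 28.0 RPKM in controls. Every mutant library was above every control library, and control replicate 3 was lower than the other controls. Its log2 fold change of 0.77 (SE 0.19) had a limma adjusted p of 0.0574, and it passed in 7 of 18 refits, among them all 3 other scalings and those without control replicate 2 or 3. Rps13, a small-subunit protein, measured 7.89, 7.67 and 9.46 RPKM in mutants and 14.3, 11.3 and 11.9 RPKM in controls (log2 fold change -0.56, SE 0.15, adjusted p 0.071). Summed with its copies it passed, at -0.59 (SE 0.13, limma adjusted p 0.037), and its copy Rps13-ps4 fell on its own (log2 fold change -0.67, SE 0.16, limma adjusted p 0.0474). Rpl35a, a large-subunit protein, measured 10.2, 8.67 and 11.1 RPKM in mutants and 15.6, 14.6 and 13.3 RPKM in controls (log2 fold change -0.52, SE 0.14, adjusted p 0.0803).

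Rps28, a small-subunit protein near the mRNA path, measured 11, 10.9 and 11 RPKM in mutants and 14.3, 13.5 and 19.1 RPKM in controls, without overlap (log2 fold change -0.48, SE 0.15, adjusted p 0.122).

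**Figure D2:**
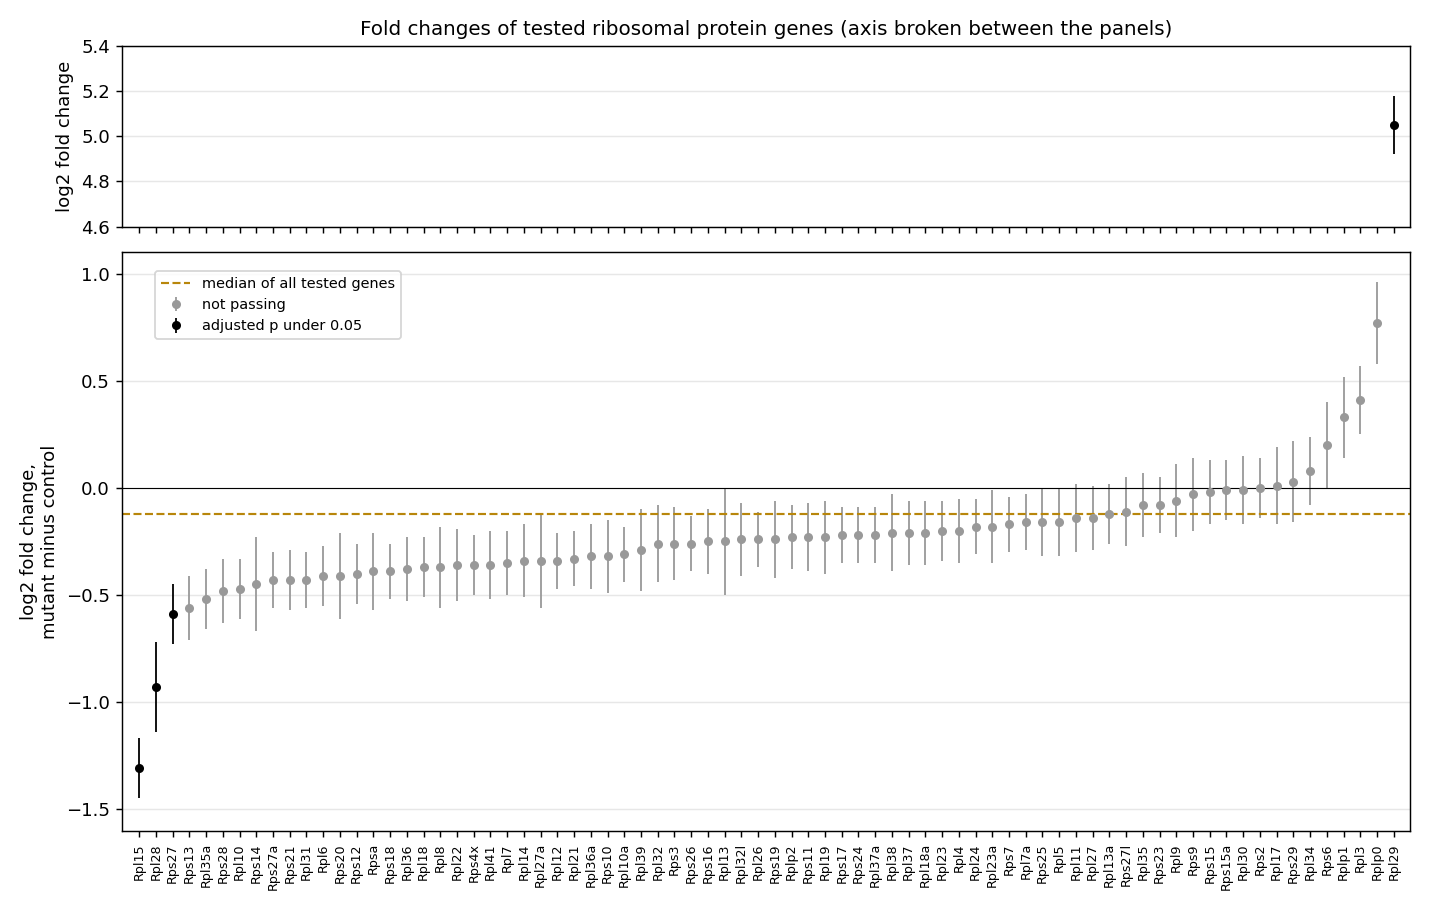
Log2 fold change (mutant minus control, on the log2(RPKM + 0.5) scale) of 76 of the 78 tested ribosomal protein genes with standard errors, ordered by size, on an axis broken between the panels; the dashed line is the median of all tested genes, -0.12. Rpl29 alone lies near 5, Rpl15 lies lowest, and 67 of the 76 drawn lie below 0.

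Across the family, small differences in 1 direction prevailed. The median log2 fold change of the 78 genes was -0.24 (quartiles -0.37 and -0.14), with 69 below 0 and 9 above. Over all 13463 tested genes the median was -0.12 (quartiles -0.27 and 0.07), with 9175 (68.1%) below 0 and 4288 above. Large-subunit genes had a median of -0.23 (47 tested: 1 higher, 2 lower) and small-subunit genes of -0.26 (31 tested: 0 higher, 1 lower). At an unadjusted limma p of 0.05, 24 of the 78 were lower and 3 higher, where 13.7% and 5.94% of all tested genes were. Groups did not overlap, with mutants lower, for 25 of the 78, against 18.0% of all tested genes, and with mutants higher for 3, against 7.06%. The 3 higher genes were Rpl29, Rplp0 and Rpl3.

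The size of this shift depended on scaling. After median-of-ratios scaling of the deposited values, the 78 genes had a median of -0.12 and all tested genes had -0.012, with 60 of 78 below 0. With depth counted without mitochondrial ribosomal RNA the medians were -0.12 and -0.013, with 61 below 0, and with quantile normalization -0.07 and -0.020, with 56 below 0. Calls over all genes moved in the same way, with 178 higher and 244 lower on the deposited values, 282 and 156 after median-of-ratios scaling, 268 and 149 without mitochondrial ribosomal RNA, and 264 and 163 after quantile normalization. The ribosomal protein median thus stayed below that of all genes under all 4 scalings, by 0.12 on the deposited values.

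The libraries of a genotype were not alike in this respect. The median deviation of the 78 genes from their own mean over the 6 libraries was -0.12, -0.20 and -0.07 (log2) in mutant replicates 1, 2 and 3 and 0.16, 0.28 and -0.06 in control replicates 1, 2 and 3. Control replicate 3 therefore lay beside the mutants. Of the 78 genes, 47 were highest in control replicate 2 and 34 were lowest in mutant replicate 2. Over all tested genes the same medians were -0.03, -0.16 and 0.03 in mutants and 0.07, 0.10 and 0.01 in controls. Shares of reads given next leave out reads counted to copies outside the 81 genes. The 81 genes together took 0.371%, 0.355% and 0.375% of reads in mutants and 0.451%, 0.519% and 0.373% in controls. As a share of reads outside mitochondrial ribosomal RNA, they took 0.547%, 0.575% and 0.557% in mutants and 0.633%, 0.710% and 0.535% in controls, with control replicate 3 again among the low libraries.

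The number of calls also depended on single libraries. Without control replicate 3, 23 of the 78 passed (2 higher, 21 lower), where 1083 of all 13471 tested genes did (270 higher, 813 lower). The genes that joined the lower side included Rps14, Rps20, Rpl7, Rpl14 and Rpl41. Without mutant replicate 1, mutant replicate 2 or control replicate 1, only Rpl29 and Rpl15 passed. All tested genes moved as well, from 148 calls without mutant replicate 2 to 1083 without control replicate 3. The spread of the 78 genes within a genotype had a median SD of 0.128 in mutants and 0.209 in controls (log2), against 0.174 and 0.187 over all tested genes.

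**Figure D3:**
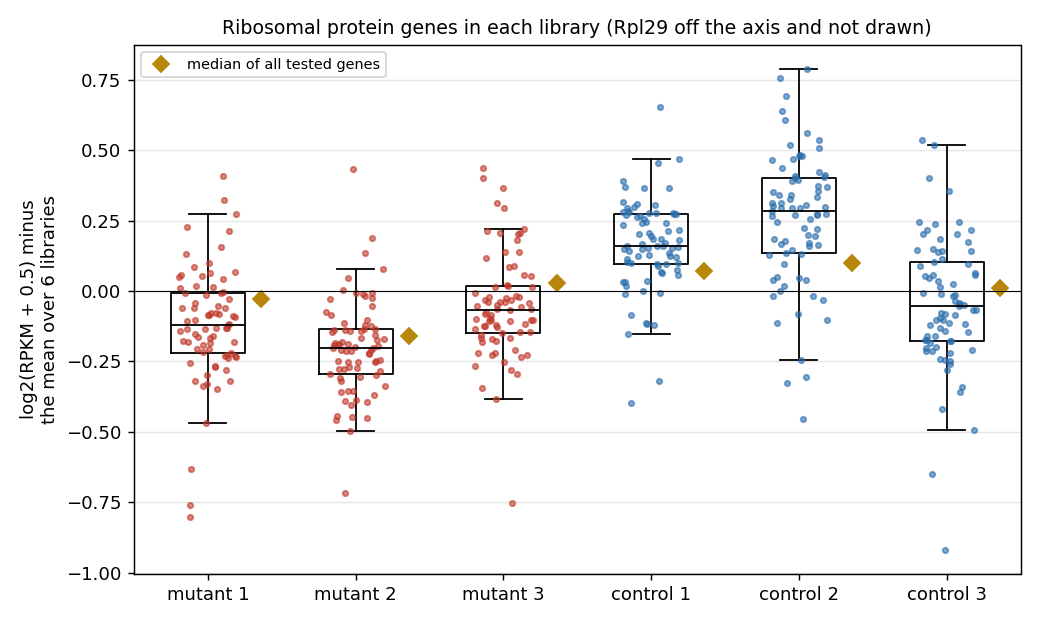
Each point is a ribosomal protein gene in a library, as log2(RPKM + 0.5) minus its mean over the 6 libraries; boxes show the quartiles and median, whiskers reach at most 1.5 times the box, diamonds give the median of all tested genes, and Rpl29 is off the axis. Control replicate 3 (median -0.06) lies with the mutants (-0.20 to -0.07), below control replicates 1 and 2 (0.16 and 0.28).

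Listed levels within the family were far from equal, although the proteins enter the ribosome in fixed proportion. These levels and their order depend on how reads were split between members and copies. Rpl24 averaged 13.2 RPKM, while its copy Gm9385 averaged 708 RPKM in mutants and 743 RPKM in controls. With reads of this copy added, Rpl24 had 560, 609 and 607 RPKM in mutants and 607, 765 and 495 RPKM in controls. These sums were divided by the length of Rpl24, so they are not on the length scale of the copy and can lie below its own RPKM. Of the 81 genes, 13 averaged over 100 RPKM, 55 between 10 and 100, 10 between 0.5 and 10, and 3 less. The median was 28.2 RPKM (24.4 for the large and 35.8 for the small subunit), against 6.29 RPKM over all tested genes, and the highest tested gene exceeded the lowest 397-fold. The 5 highest genes held 29.9% of the summed RPKM of the family. Rpl32 led with 331, 306 and 322 RPKM in mutants and 391, 488 and 294 RPKM in controls, and Rpl32l, an intronless copy of it, had 232, 242 and 251 RPKM in mutants and 282, 366 and 227 RPKM in controls. Since these genes share sequence, the split between them is uncertain. RefSeq lists Rpl32l as protein-coding, by which it is counted here, while GENCODE vM21 lists it as a processed pseudogene. Rpl41, which encodes a very short basic peptide, had 287, 259 and 288 RPKM in mutants and 349, 436 and 297 RPKM in controls, without overlap (log2 fold change -0.36, SE 0.16, adjusted p 0.251). Rpl8, a protein near the catalytic centre, averaged 281 RPKM over the 6 libraries, and Rps25, which helps some viral RNAs to start translation in human cells, 272 RPKM.

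At the low end, Rpl13 had 0.381, 0.738 and 1.30 RPKM in mutants and 0.957, 0.993 and 1.00 RPKM in controls, from 9 to 28 reads per library. Rpl13 encodes an essential large-subunit protein, and 80.8% of its 31-base words occur in another gene. With reads of its 3 copies in the table added, over the length of Rpl13, it had 10.8, 11.8 and 16.1 RPKM in mutants. The same sums were 13.6, 17.2 and 9.3 RPKM in controls, so the low level is that of the entry alone. Rpl39, which lines the tunnel through which the new peptide leaves, had 1.93, 2.74 and 2.21 RPKM in mutants and 2.32, 3.58 and 2.89 RPKM in controls, which overlapped. Of the paralogues known for expression in few tissues, Rpl10l and Rpl39l, both expressed in testis, were listed at 0 in all 6 libraries. Rpl3l, the counterpart of Rpl3 in heart and skeletal muscle, had at most 7 reads in any library and was not tested. Rps27l, a paralogue of Rps27 that p53 induces in human cells, was well expressed, at 37.4, 30.6 and 25 RPKM in mutants and 29.2, 38.1 and 32.7 RPKM in controls (log2 fold change -0.11, SE 0.16, adjusted p 0.708). Across the 78 tested genes Spearman's rho between mean level and the share of words found elsewhere was -0.15, and between log2 fold change and that share 0.02, as descriptions over genes that share their libraries.

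**Figure D4:**
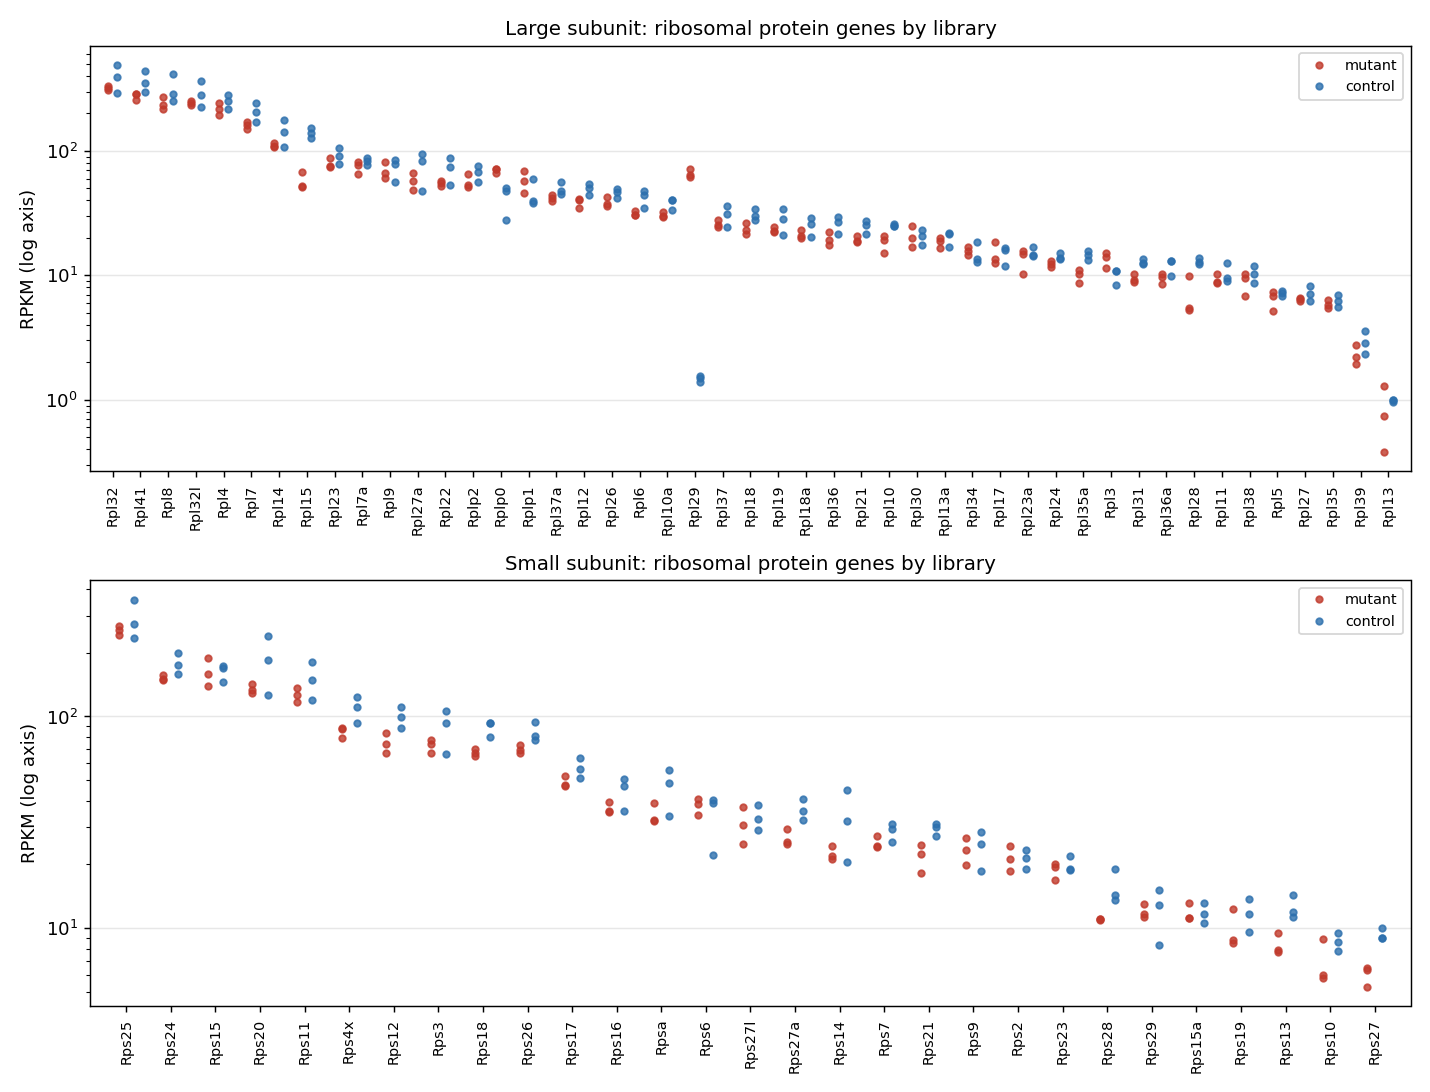
RPKM (log axis) of 47 large-subunit and 29 small-subunit genes, ordered by mean, with a point per library, mutants in red on the left and controls in blue on the right. Rpl29 is the gene whose genotypes stand farthest apart, and Rpl15 is lower in every mutant library than in any control library.

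By role, the stalk of the large subunit held genes on both sides of 0. Besides Rplp0, its partner Rplp1 measured 46.0, 57.7 and 68.6 RPKM in mutants and 38.3, 59.9 and 39.7 RPKM in controls (log2 fold change 0.33, SE 0.19, adjusted p 0.355). Rplp2, the other acidic stalk protein, measured 51.8, 53.1 and 64.9 RPKM in mutants and 68.2, 76.0 and 56.1 RPKM in controls (log2 fold change -0.23, SE 0.15, adjusted p 0.398), so both partners overlapped between genotypes. Rpl12, which sits beside the stalk base, measured 41.2, 35.0 and 40.6 RPKM in mutants and 53.8, 44.3 and 50.4 RPKM in controls, without overlap (log2 fold change -0.34, SE 0.13, adjusted p 0.192). None of the 4 passed.

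Around the catalytic centre, Rpl3 measured 14.1, 11.5 and 15.1 RPKM in mutants and 10.9, 8.32 and 10.9 RPKM in controls, groups that did not overlap (log2 fold change 0.41, SE 0.16, adjusted p 0.19). Its copies ran against it: Gm12816 had 78, 45 and 62 reads in mutants and 179, 222 and 106 in controls and fell (log2 fold change -1.10, SE 0.21, limma adjusted p 0.0174), and the sum over Rpl3 and 2 copies had a log2 fold change of -0.09 (SE 0.15, adjusted p 0.751). Rpl10, which completes the active site late in assembly in yeast, measured 19.2, 15.1 and 20.6 RPKM in mutants and 26.1, 25.1 and 25 RPKM in controls (log2 fold change -0.47, SE 0.14, adjusted p 0.104). Rpl4, whose loop reaches into the exit tunnel, measured 244, 216 and 196 RPKM in mutants and 254, 282 and 217 RPKM in controls (log2 fold change -0.20, SE 0.15, adjusted p 0.468). The 7 genes of the exit tunnel and its rim had a median log2 fold change of -0.23, with 6 below 0 and none past the threshold.

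Rpl5 and Rpl11 form with the 5S RNA the particle that binds Mdm2 and so stabilises p53. Rpl5 measured 7.30, 5.19 and 6.89 RPKM in mutants and 7.24, 6.78 and 7.54 RPKM in controls (log2 fold change -0.16, SE 0.16, adjusted p 0.586). Rpl11 measured 10.3, 8.79 and 8.72 RPKM in mutants and 8.97, 9.50 and 12.6 RPKM in controls (log2 fold change -0.14, SE 0.16, adjusted p 0.631). Both overlapped between genotypes. Summed with its 3 copies Rpl11 had a log2 fold change of -0.50 (SE 0.13, adjusted p 0.067), so here the copies moved the value away from 0.

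In the small subunit, the 7 genes along the mRNA path had a median log2 fold change of -0.16, with none past the threshold. Rps6, the protein that S6 kinase phosphorylates downstream of TOR, measured 40.7, 38.5 and 34.1 RPKM in mutants and 38.9, 40.2 and 22.2 RPKM in controls (log2 fold change 0.20, SE 0.20, adjusted p 0.577). Rps27a, which is made as a fusion with ubiquitin, measured 29.3, 25.1 and 25.4 RPKM in mutants and 40.7, 35.6 and 32.3 RPKM in controls, without overlap (log2 fold change -0.43, SE 0.13, adjusted p 0.114). Of 19 genes whose mutation causes Diamond-Blackfan anaemia in humans, 2 fell (Rpl15 and Rps27) and none rose, where 1.81% of all tested genes fell. The Rps27 call was lost in 14 of 18 refits, as given above, among them that with copies summed. Rpl15 had been singled out with results of these data known, so the count of 2 is no independent finding. The median log2 fold change of the 19 was -0.24.

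Most of the family has copies. In 73 of the 81 genes at least 20% of 31-base words occurred in another gene, in 41 at least 50%, and the median was 50.1%. In all, 747 distinct annotated copies shared at least 20% of words with a member or carried its pseudogene name, and 122 of them had an entry in the table. Leaving out 8 coding genes of other names and Rpl32, itself a member, 113 copies of 49 members were summed with their members. Of these, 84 were expressed enough to be tested, 4 rose and 7 fell, where 1.32% of all tested genes rose and 1.81% fell. The median log2 fold change of the 84 was -0.20, against -0.12 over all tested genes. Adding copies to their members left Rpl29 and Rpl15 past the threshold, ended the calls of Rpl28 and Rps27, and added Rps13.

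Promoters of the family were described from RefSeq (GRCm38.p6), which held windows of 250 bases before to 50 after a start for 61 of the 81 genes, 73 windows in all. CCGGAAG, a sequence bound by ETS factors such as GABP, occurred on either strand in 35.6% of them, against 8.86% of all 32851 windows. GCCATNTT, bound by YY1, occurred in 20.5% against 6.05%, CACGTG, the E-box bound by Myc, in 11% against 7.15%, and TATAAA in 9.59% against 13.6%. CTTTCC on the strand with the mRNA sequence, from 20 bases before to 20 after the start, occurred in 15.1% against 1.95%. It was searched as a run of pyrimidines, and whether these mRNAs begin with it was not tested. None of these motifs contains another. The stretches from 60 bases before to 20 after the start are shown for the 3 genes that fell and for Rplp0, with motifs in capitals: Rpl15 at chr14:18270967-18271046 (minus strand), Rpl28 at chr7:4792905-4792984 (plus strand), Rps27 at chr3:90213629-90213708 (minus strand) and Rplp0 at chr5:115559407-115559486 (plus strand).
Rpl15: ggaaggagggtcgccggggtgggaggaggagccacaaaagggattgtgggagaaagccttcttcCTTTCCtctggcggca
Rpl28: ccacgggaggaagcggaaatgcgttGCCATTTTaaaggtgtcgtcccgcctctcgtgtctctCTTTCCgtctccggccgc
Rps27: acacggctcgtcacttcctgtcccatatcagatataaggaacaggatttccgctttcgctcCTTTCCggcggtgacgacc
Rplp0: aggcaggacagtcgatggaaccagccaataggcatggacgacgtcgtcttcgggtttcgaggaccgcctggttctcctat
The pyrimidine motif stands close to the start in Rpl15, Rpl28 and Rps27, Rpl28 also holds the YY1 letters, and none of the searched motifs is in the Rplp0 stretch. Outside the stretches shown, the full windows also held the ETS letters in Rpl15, the YY1 letters in Rps27 and the TATA letters in Rplp0. Rpl29 is not shown, and whether any motif goes with the direction of change was not tested.

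Genes that work with the ribosome were set beside the median of all tested genes, -0.12, and the 3.13% of them that passed in either direction. Of 77 mitochondrial ribosomal protein genes tested, none passed, and the median log2 fold change was -0.20. Mrpl32, with the lowest p of them, measured 40.5, 38.3 and 34.3 RPKM in mutants and 51.8, 48.7 and 45.5 RPKM in controls (log2 fold change -0.37, SE 0.13, adjusted p 0.151). Of 50 ribosome assembly genes, Eif6 fell and 49 did not pass (median -0.20). Eif6 keeps new large subunits from joining small ones, and measured 12.2, 11.2 and 12.1 RPKM in mutants and 23.5, 25.7 and 15.3 RPKM in controls (log2 fold change -0.80, SE 0.18, limma adjusted p 0.0342). Of 44 translation factors, Eif3j1 rose, at 20.7, 16.0 and 17.1 RPKM in mutants and 10.3, 10.2 and 10.6 RPKM in controls (log2 fold change 0.76, SE 0.14, limma adjusted p 0.0122), and 43 did not pass (median -0.26). Of 18 genes of the TOR pathway none passed (median -0.23). Among them Larp1, which binds pyrimidine-start mRNAs, measured 31.4, 27.8 and 34.5 RPKM in mutants and 41.3, 42.8 and 45.2 RPKM in controls (log2 fold change -0.46, SE 0.13, adjusted p 0.0861).

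Of 11 ribosomal proteins and relatives whose symbols fall outside the rule, Rps3a1 rose and 10 did not pass. Rps3a1, the mouse gene of a small-subunit protein, measured 173, 99.2 and 81.8 RPKM in mutants and 37.6, 37.3 and 36.5 RPKM in controls (log2 fold change 1.58, SE 0.22, limma adjusted p 0.00264). The mutant libraries spread widely and the controls hardly at all, and 76.9% of its 31-base words occur in another gene.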

How the data were processed

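Total RNA of sorted nephron progenitors was amplified (Ovation RNA-Seq System V2) and sequenced from both ends for 100 bases each, per the labels' protocols. The authors deposited 1 table of RPKM values per Entrez Gene entry on mm10; the submitters' processing notes list FastQC and limma, and no strand setting, counting tool or handling of reads with several matches is given in the sources used here. Symbols were matched for 25293 of 27179 entries. Depths, gene lengths and whole reads were recovered from the steps of the RPKM values within 0.02 of a read, for all 13463 tested genes; recovered reads came to 99.91% to 99.92% of depth. A read here may stand for a pair. Since 1 read on 1 kb is worth 0.0277 to 0.0362 RPKM, genes with few reads are least precise.

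Genotypes were compared with limma 3.58.1 (R 4.3.3) on log2(RPKM + 0.5), with a mean-variance trend, for genes averaging at least 0.5 RPKM; this scale understates the change of low genes. Alternatives covered pseudocount, filter, scaling, variance model, voom on recovered reads, a replicate block, each library left out, copies summed and the threshold. Shared 31-base words were counted with Python 3.11.15 between GENCODE transcripts of members and non-overlapping genes, and an entry sharing at least 20% of either's words, or bearing the member's pseudogene name, was taken as a copy. The fit and the read recovery were tested on simulated data. In the simulation of the fit, spreads were shuffled over genes, so it did not test the mean-variance trend. Genes, lists and tests were chosen with earlier results of these data known. Described one by one are members past the threshold, the 10 with the largest fold changes, the 5 highest and 5 lowest levels, paralogues of few tissues, up to 4 of the lowest p in each related list and the closest copies of called members; others named by role were chosen after their values were seen. Some genes that this rule names are not reported here, and they are left out of plots that name genes.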

Additional observations from a re-analysis of the deposited data

How the results depend on the processing

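Under 18 refits Rpl29 and Rpl15 kept their direction and their call (0.78 to 5.44 and -1.49 to -1.10 on the log2 scale), Rpl28 and Rps27 kept their direction only, and the median of the 78 ribosomal protein genes stayed below 0; it moved from -0.24 to -0.07 with quantile normalization, and between -0.34 and -0.16 when a library was left out. Of the 78 (79 with no filter), 2 passed with no filter, with no variance trend and at an adjusted p of 0.01. At 0.1, 7 passed, and between 2 and 23 passed when a library was left out. Over all tested genes, against 422 of 13463, the counts were 143 with no filter (of 23229 tested) and 690 with voom on recovered reads. They were 143 at an adjusted p of 0.01, 730 at 0.1, and 148 to 1083 with a library left out. Of the 18 tested members followed through the settings, those whose value turned positive were Rps27l (0.01 with median-of-ratios scaling, 0.03 with quantile normalization, 0.01 without mitochondrial ribosomal RNA, 0.03 without mutant replicate 3, with a range of -0.26 to 0.03 when a library was left out), Rps25 (0.08 with quantile normalization, 0.01 without control replicate 2, range -0.29 to 0.01) and Rpl13 (0.01 without mutant replicate 1, range -0.51 to 0.01), none of which passed; the cause was not tested. With a replicate block, 4 of the 78 passed (2 higher, 2 lower) and 393 of all tested genes. Deviations of same-numbered libraries correlated at 0.0526, 0.157 and 0.153 in replicates 1, 2 and 3. Differently numbered libraries were not compared, so these values cannot show whether the numbers pair the samples. With 3 libraries per genotype and 28 reads or fewer on Rpl13 and 51 or fewer on Rpl39, small differences of the lowest genes were not detectable.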

Other observations

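Pseudogenes of Rps15a, a small-subunit protein gene, moved in opposite directions while Rps15a itself stood at a log2 fold change of -0.01 (SE 0.14, adjusted p 0.986). Rps15a-ps4 had 1204, 639 and 665 reads in mutants and 409, 615 and 276 in controls and rose (log2 fold change 1.06, SE 0.23, limma adjusted p 0.029), and Rps15a-ps2 rose too (log2 fold change 0.92, SE 0.20, limma adjusted p 0.0345). Rps15a-ps6 had 990, 1381 and 1139 reads in mutants and 2380, 3533 and 1843 in controls and fell (log2 fold change -0.98, SE 0.18, limma adjusted p 0.0134), as did Rps15a-ps8 (log2 fold change -1.43, SE 0.28, limma adjusted p 0.0199). Summed over Rps15a and 6 copies, the log2 fold change was -0.24 (SE 0.15, adjusted p 0.408). Copies of other members also rose while the member did not pass: Gm10653, a copy of Rps2, had 34, 34 and 36 reads in mutants and 2, 6 and 3 in controls (log2 fold change 1.33, SE 0.21, limma adjusted p 0.00484), and Gm7285, a copy of Rps7, had 98, 103 and 142 in mutants and 62, 51 and 46 in controls (log2 fold change 1.1, SE 0.20, limma adjusted p 0.0111). These genes were chosen after their values were seen.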
